A study of Drosophila melanogaster with 36 samples.

Results

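Male flies exposed to CMIT/MIT by inhalation and sampled on days 1, 2 and 7 were compared among the 3 days. CMIT/MIT is a mixture of chloromethylisothiazolinone and methylisothiazolinone, a biocide. They comprise 8 libraries of the 36 in the series, chosen by their titles as exposed males, with 3 on day 1, 2 on day 2 and 3 on day 7. A further library titled as an exposed male of day 2 was left out because it held RNA of female tissues, so 8 of 9 such libraries were used.

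Each exposed library came from whole wild-type males given CMIT/MIT aerosol at 330 mg/m3 for 1 hour, and the 9 air males (3 on each of days 1, 2 and 7) had filtered air instead. Survival at this concentration averaged about 81.5%, per the series text. The labels give neither the age of the flies, nor the hour of collection, nor whether the days count from the exposure, and they name no batch, so a batch that followed the day cannot be told apart from the day. Nor do they say whether replicates came from separate cultures, so p-values measure only the spread between these samples. In RNA of whole flies, fewer cells of a type and less RNA per cell cannot be told apart.

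Isothiazolinones react with thiol groups of proteins and of glutathione. In insects, cytochrome P450s, glutathione transferases and UDP-glycosyltransferases carry out the main steps of detoxification, metallothioneins bind metals through their thiols, and antimicrobial peptides are made by the fat body under the Imd and Toll pathways. Whole males also carry large amounts of RNA from the testis and from the accessory gland, which makes the seminal fluid proteins.

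Reads were counted near the 3' end of each transcript. Depth ranged from 4681333 to 11298742 counts in the 8 exposed libraries, where 3 counts correspond to 0.641 and 0.266 CPM (counts scaled to a common library total), and from 8133477 to 15444994 counts in the 9 air libraries. These floors allow for counting error alone, because copies made by PCR do not count separate molecules. The male dosage compensation RNA roX1 (lncRNA:roX1) lay between 847 and 1512 CPM in the 8 exposed libraries and sex peptide SP between 1766 and 3749 CPM, whereas the library left out had 209.8 and 602 CPM. Among female markers, Yp1 lay between 8.78 and 176 CPM in the 8 libraries, against 6700 CPM in the library left out. Replicate 2 of day 7, the shallowest library, stood apart on the first principal component (score 40.0, the other 7 at most 3.05; 33.0% of variance), and replicate 2 of day 2 had the highest score on the second (26; 21.8% of variance). Replicates correlated at r = 0.948 to 0.976 on the log2 scale, and no pair was a repeat of 1 library, with chi-square per degree of freedom of at least 18.4.

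The first comparison asked which genes differed at all among the 3 days in exposed males. Of 12690 genes tested, 19 did, or 0.15% (edgeR quasi-likelihood F test, adjusted p below 0.05), while 1503 (11.8%) had an unadjusted p below 0.05. Levels are given as CPM scaled by TMM over the 17 male libraries, and positions are on the BDGP6 assembly (dm6). The phu gene led the test (adjusted p = 0.00855). By the mean of log2(CPM + 1), 9 of the 19 were highest on day 7, 9 on day 1 and 1, CG16986, on day 2. Hao was counted with day 7, but its mean levels were 46.5 CPM on day 7 and 46.6 CPM on day 2, so on the linear scale day 2 was the higher. In turn 8 were lowest on day 2, 6 on day 7 and 5 on day 1.

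**Figure D1:**
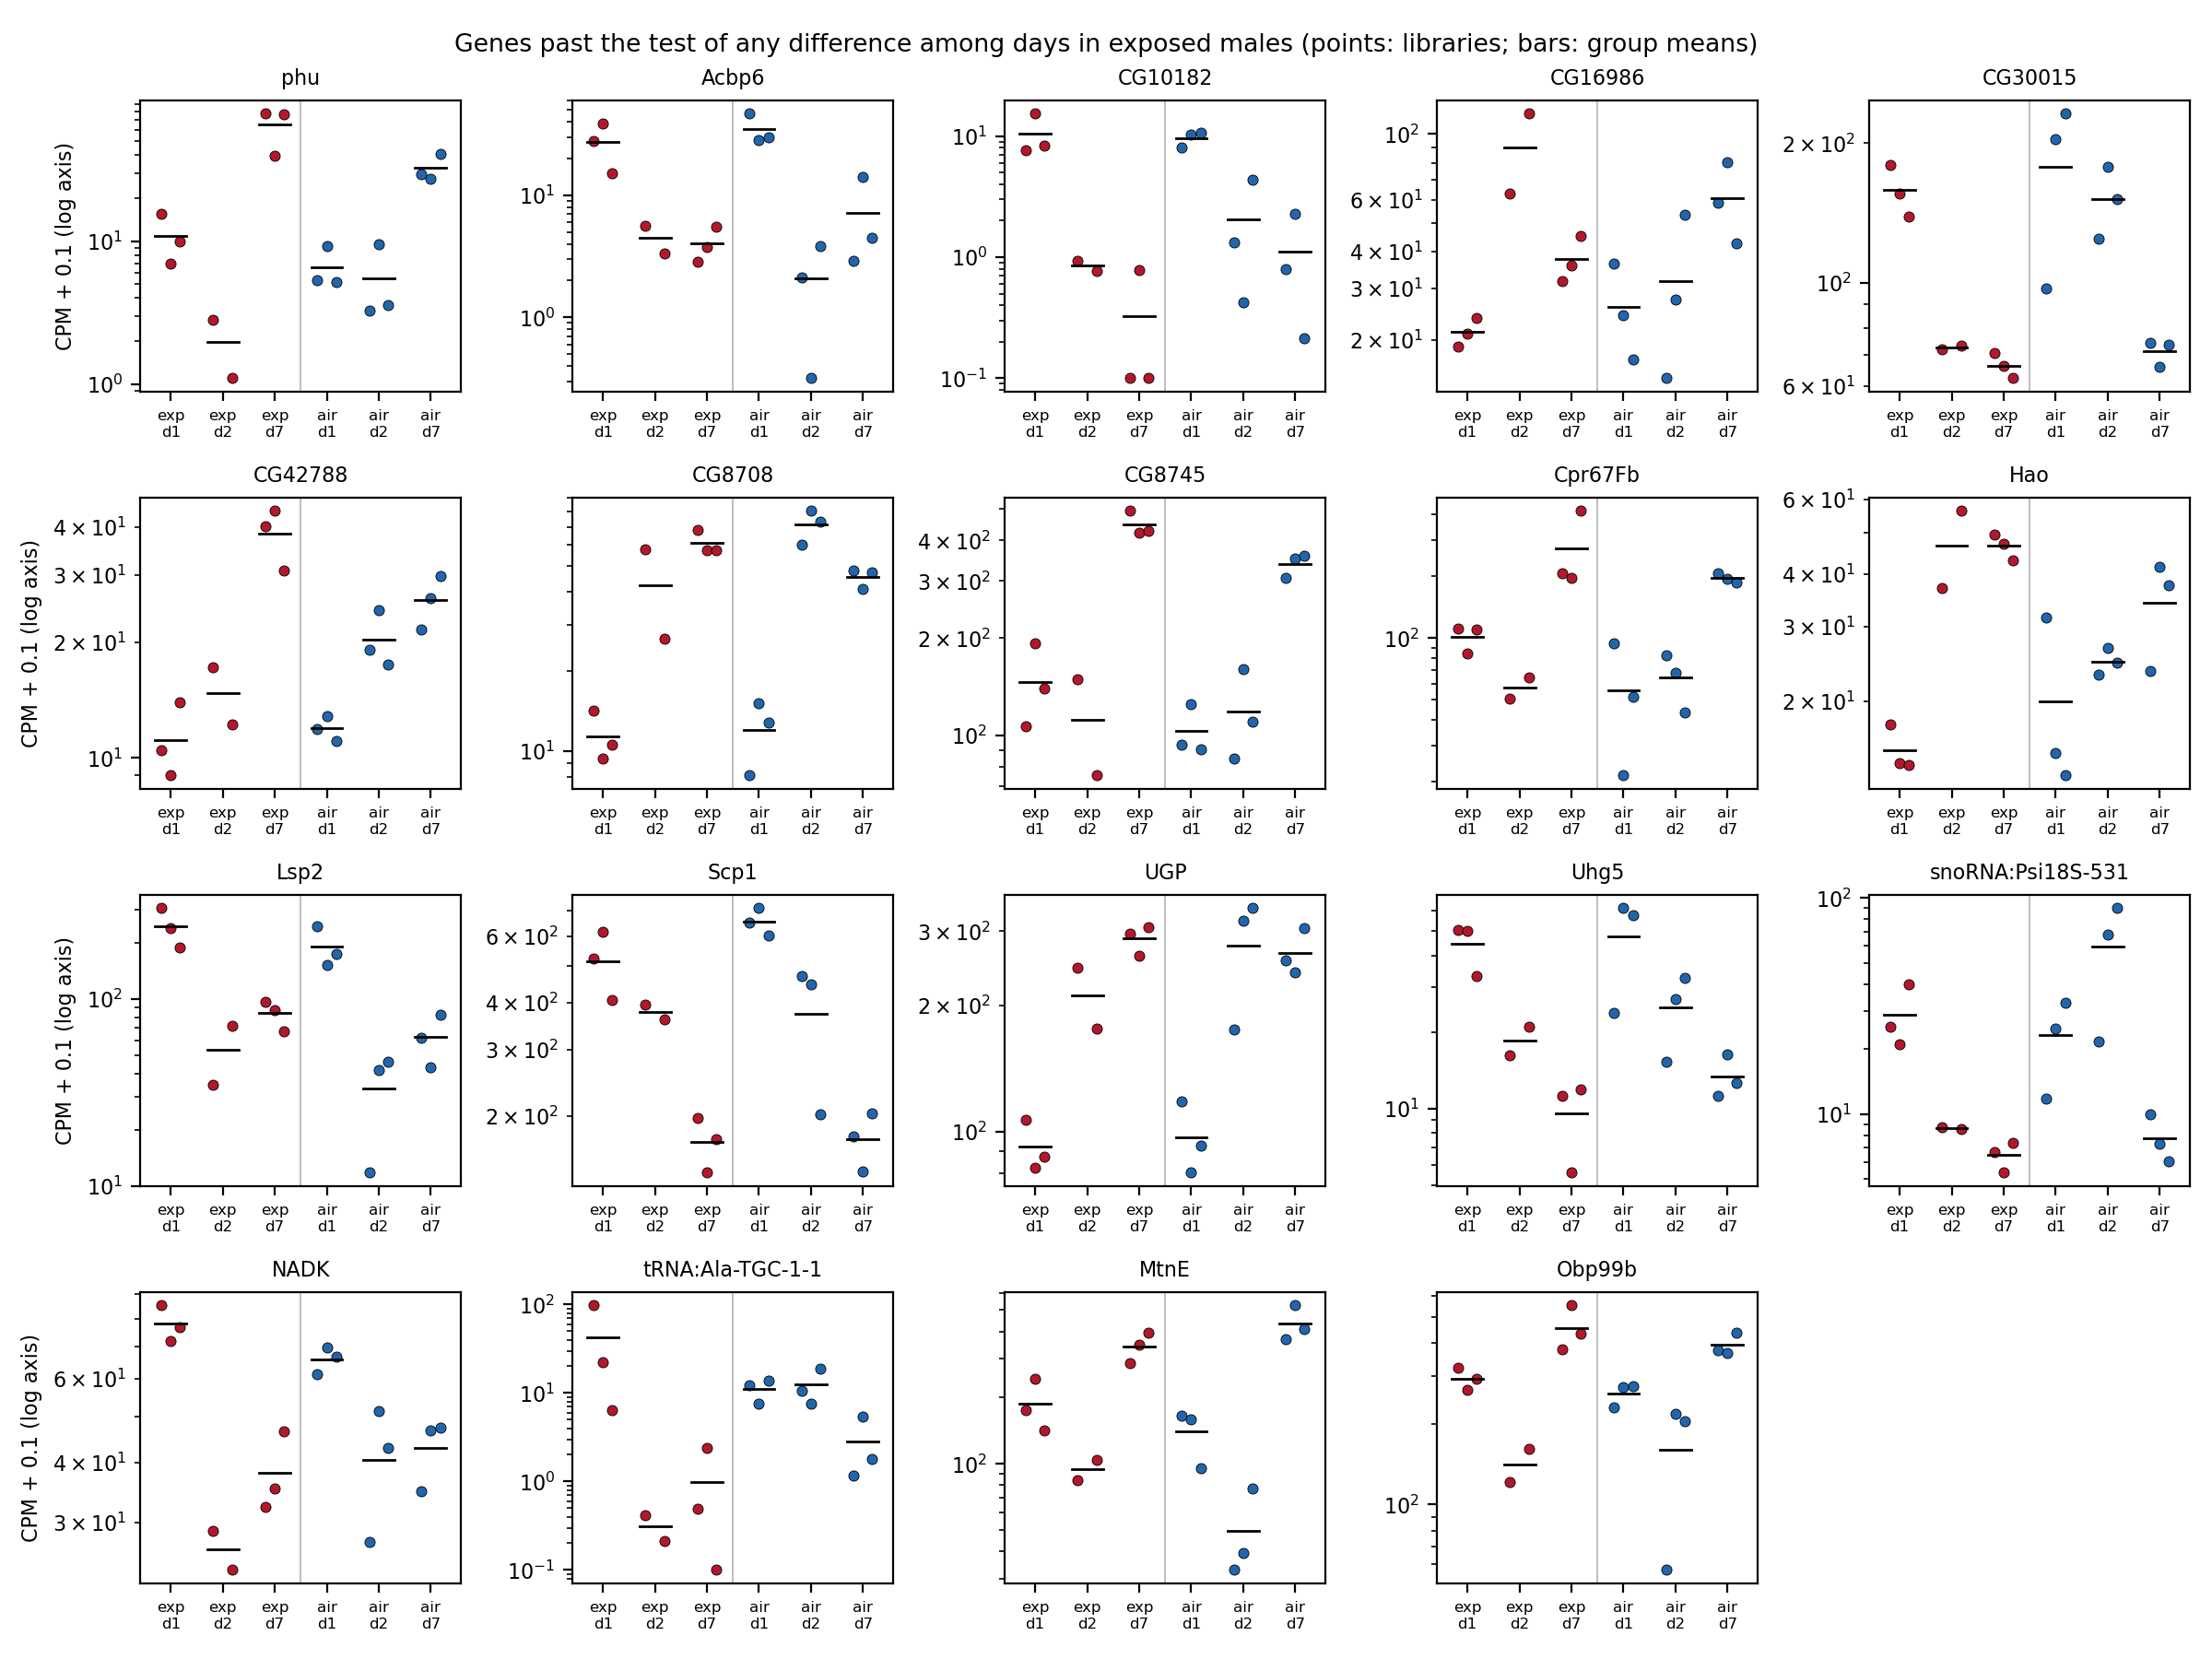
Levels of the 19 genes past the test of any difference among days, in CPM plus 0.1 on a log axis, in each of the 17 male libraries, with exposed males (red) left of air males (blue) and days 1, 2 and 7 in order. Points are libraries and bars are group means. The phu panel shows the 3 exposed libraries of day 7 at 39.5 to 78.0 CPM, above every other exposed library, while the air libraries of day 7 span 27.2 to 40.7 CPM.

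Day 7 was then compared with day 1, the widest interval. In exposed males 7 genes rose (0.0552% of those tested) and 8 fell (0.063%), and 1942 (15.3%) had an unadjusted p below 0.05. In 21.6% of the genes tested, libraries of the 2 days were fully separated, so a lack of overlap by itself was common.

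Among the genes that rose, phu (FBgn0043791, 3R:9494801-9496723, plus strand) had 15.4, 6.91 and 9.80 CPM on day 1, 2.72 and 1.00 CPM on day 2, and 78.0, 39.5 and 77.0 CPM on day 7. All 3 libraries of day 7 stood above those of day 1, and day 2 was the lowest, and the log2 fold change of day 7 over day 1 was 2.60 (adjusted p = 0.0269, SE 0.38). CG8708 (FBgn0033271, 2R:8159406-8161565, minus strand) measured 14.1, 9.24 and 10.5 CPM on day 1, 57.6 and 26.5 CPM on day 2, and 68.2, 56.9 and 57.2 CPM on day 7, with both later days above every library of day 1. Its change was 2.43 (adjusted p = 0.0237, SE 0.30). UGP (FBgn0035978, 3L:9350867-9358935, minus strand) encodes UTP-glucose-1-phosphate uridylyltransferase, which makes UDP-glucose, the donor of glucose for glycogen. Levels of UGP were 107, 82.0 and 87.4 CPM on day 1, 246 and 176 CPM on day 2, and 297, 262 and 307 CPM on day 7, again lower in every library of day 1 than later, with a change of 1.65 (adjusted p = 0.0237, SE 0.21).

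Hao (FBgn0061356, 2R:10883547-10884936, plus strand), a hydroxyacid oxidase gene, had 17.5, 14.2 and 14 CPM on day 1, 36.9 and 56.3 CPM on day 2, and 49.5, 47.1 and 42.8 CPM on day 7. Every library of days 2 and 7 lay above every library of day 1, and the day 7 minus day 1 change was 1.61 (adjusted p = 0.0237, SE 0.22). CG42788 (FBgn0261859, 3R:15095957-15131926, minus strand) reached its highest levels on day 7 only, with 10.4, 8.90 and 13.8 CPM on day 1, 17 and 12.1 CPM on day 2, and 40.1, 44.1 and 30.7 CPM on day 7, and changed by 1.79 (adjusted p = 0.0262, SE 0.26). The long noncoding RNA lncRNA:CR43752 (FBgn0264083, 2L:8295158-8295666, plus strand) had 10.4, 10.5 and 10.6 CPM on day 1, 38.2 and 19.1 CPM on day 2, and 30.3, 36.3 and 38.7 CPM on day 7, a change of 1.74 (adjusted p = 0.0293, SE 0.27). CG3534 (FBgn0038463, 3R:16996446-16999449, plus strand) had 12.8, 11.7 and 8.17 CPM on day 1, 26.6 and 23.2 CPM on day 2, and 35.9, 29.2 and 29.7 CPM on day 7 and changed by 1.54 (adjusted p = 0.0293, SE 0.23).

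Of the genes that fell, Scp1 (FBgn0020908, 2R:2932595-2968052, minus strand), a sarcoplasmic calcium-binding protein gene, was the most abundant. Its levels were 522, 615 and 406 CPM on day 1, 395 and 362 CPM on day 2, and 197, 142 and 174 CPM on day 7, so the 3 days did not overlap, and its day 7 minus day 1 change was -1.59 (adjusted p = 0.0237, SE 0.22). Acbp6 (FBgn0035743, 3L:7128903-7129673, plus strand), a gene of the acyl-CoA binding protein family, had 27.7, 38.8 and 15.0 CPM on day 1, 5.55 and 3.22 CPM on day 2, and 2.76, 3.66 and 5.46 CPM on day 7. Day 2 and day 7 overlapped each other and lay below day 1, and the change was -2.77 (adjusted p = 0.0269, SE 0.41). CG30015 (FBgn0050015, 2R:10839102-10874771, minus strand) had 179.7, 156 and 139 CPM on day 1, 71.7 and 73.2 CPM on day 2, and 70.4, 66.0 and 62.2 CPM on day 7. The 3 days did not overlap, day 2 lying just above day 7, and the change was -1.26 (adjusted p = 0.0262, SE 0.18). CG10182 (FBgn0039091, 3R:23587120-23589819, minus strand) had 7.49, 15.3 and 8.26 CPM on day 1, 0.838 and 0.667 CPM on day 2, and 0, 0.686 and 0 CPM on day 7. Its 3 libraries of day 7 held 3 counts in all against 354 on day 1, which makes the ratio 0.0116 (95% exact binomial limits 0.00238 and 0.0342, for counting error). Its adjusted p was 0.0269.

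Also among the genes that fell were 3 noncoding RNAs linked to ribosomal RNA modification. Uhg5 (FBgn0083123, 2R:14621601-14624498, plus strand) is a host gene whose span holds 11 annotated snoRNAs on the same strand. It had 50.5, 49.8 and 33.2 CPM on day 1, 16.0 and 20.9 CPM on day 2, and 11.1, 5.48 and 11.7 CPM on day 7, a change of -2.20 (adjusted p = 0.0237, SE 0.30). The snoRNAs snoRNA:Psi18S-531 (FBgn0083027, X:763083-763234, minus strand) and snoRNA:Psi28S-3342 (FBgn0086667, X:5524302-5524465, minus strand) belong to the class that guides pseudouridylation of ribosomal RNA. The first had 25.3, 21 and 39.6 CPM on day 1, 8.59 and 8.45 CPM on day 2, and 6.60, 5.26 and 7.24 CPM on day 7. It lies inside RpL22 and overlaps lncRNA:CR42491, both on the same strand, so their reads may not have been told apart. It changed by -2.15 (adjusted p = 0.0237, SE 0.29). The second had 53.5, 34.4 and 77.0 CPM on day 1, 26.9 and 33.4 CPM on day 2, and 11.3, 7.77 and 17.1 CPM on day 7 and changed by -2.17 (adjusted p = 0.0332, SE 0.34). Whether counts at either position came from the snoRNA itself or from a longer transcript was not tested. Of the 15 genes past the test, 9 overlap another annotated gene and 6 do not, and the strand setting of the counting is not given in the sources used here.

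Last, the clock gene tim (FBgn0014396, 2L:3493986-3508119, minus strand), whose protein pairs with period to repress their own transcription, had 104, 52.6 and 92.9 CPM on day 1, 50.6 and 45.9 CPM on day 2, and 31.7, 23.3 and 25.4 CPM on day 7. Every library of day 7 lay below every library of days 1 and 2, and the change from day 1 was -1.63 (adjusted p = 0.0397, SE 0.26).

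Air males gave a check of whether these differences between days were seen without exposure, and share no library with the exposed males. All 15 genes had the same sign of day 7 minus day 1 in air males, and 7 of them also passed there, which is 46.7% of the 15 and 9.59% of the 73 genes that passed in air males (0.298% of 12399 tested rose and 0.29% fell). The share of all genes with the same sign in both arms was not computed, so the agreement in sign has no background to be set against. For phu the air males had 5.10 to 9.13 CPM on day 1, 3.19 to 9.45 CPM on day 2, and 27.2 to 40.7 CPM on day 7, a log2 fold change of 2.32 (adjusted p = 0.0238, SE 0.41), and for Scp1 603 to 713 CPM on day 1, 202 to 470.3 CPM on day 2, and 143 to 204 CPM on day 7, a change of -1.90 (adjusted p = 0.0101, SE 0.28). CG8708 changed by 1.93 (adjusted p = 0.00622, SE 0.25) in air males and UGP by 1.47 (adjusted p = 0.0196, SE 0.25). CG3534 changed by 1.57 (adjusted p = 0.0325, SE 0.30) there. Uhg5 changed by -1.84 (adjusted p = 0.0416, SE 0.37) and tim by -1.61 (adjusted p = 0.00683, SE 0.23). The other 8 did not pass in air males. There CG30015 had -1.32 (adjusted p = 0.0570), CG42788 1.13 (adjusted p = 0.0572) and lncRNA:CR43752 1.54 (adjusted p = 0.0736). Acbp6 had -2.31 (adjusted p = 0.0944) and CG10182 -3.24 (adjusted p = 0.0964). For snoRNA:Psi18S-531 the air value was -1.58 (adjusted p = 0.133), for snoRNA:Psi28S-3342 -1.23 (adjusted p = 0.197) and for Hao 0.79 (adjusted p = 0.256). Of the 19 genes past the test of any difference, 12 also passed it in air males, which is 63.2% of the 19 and 4.18% of the 287 (2.31%) that passed in air males.

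**Figure D2:**
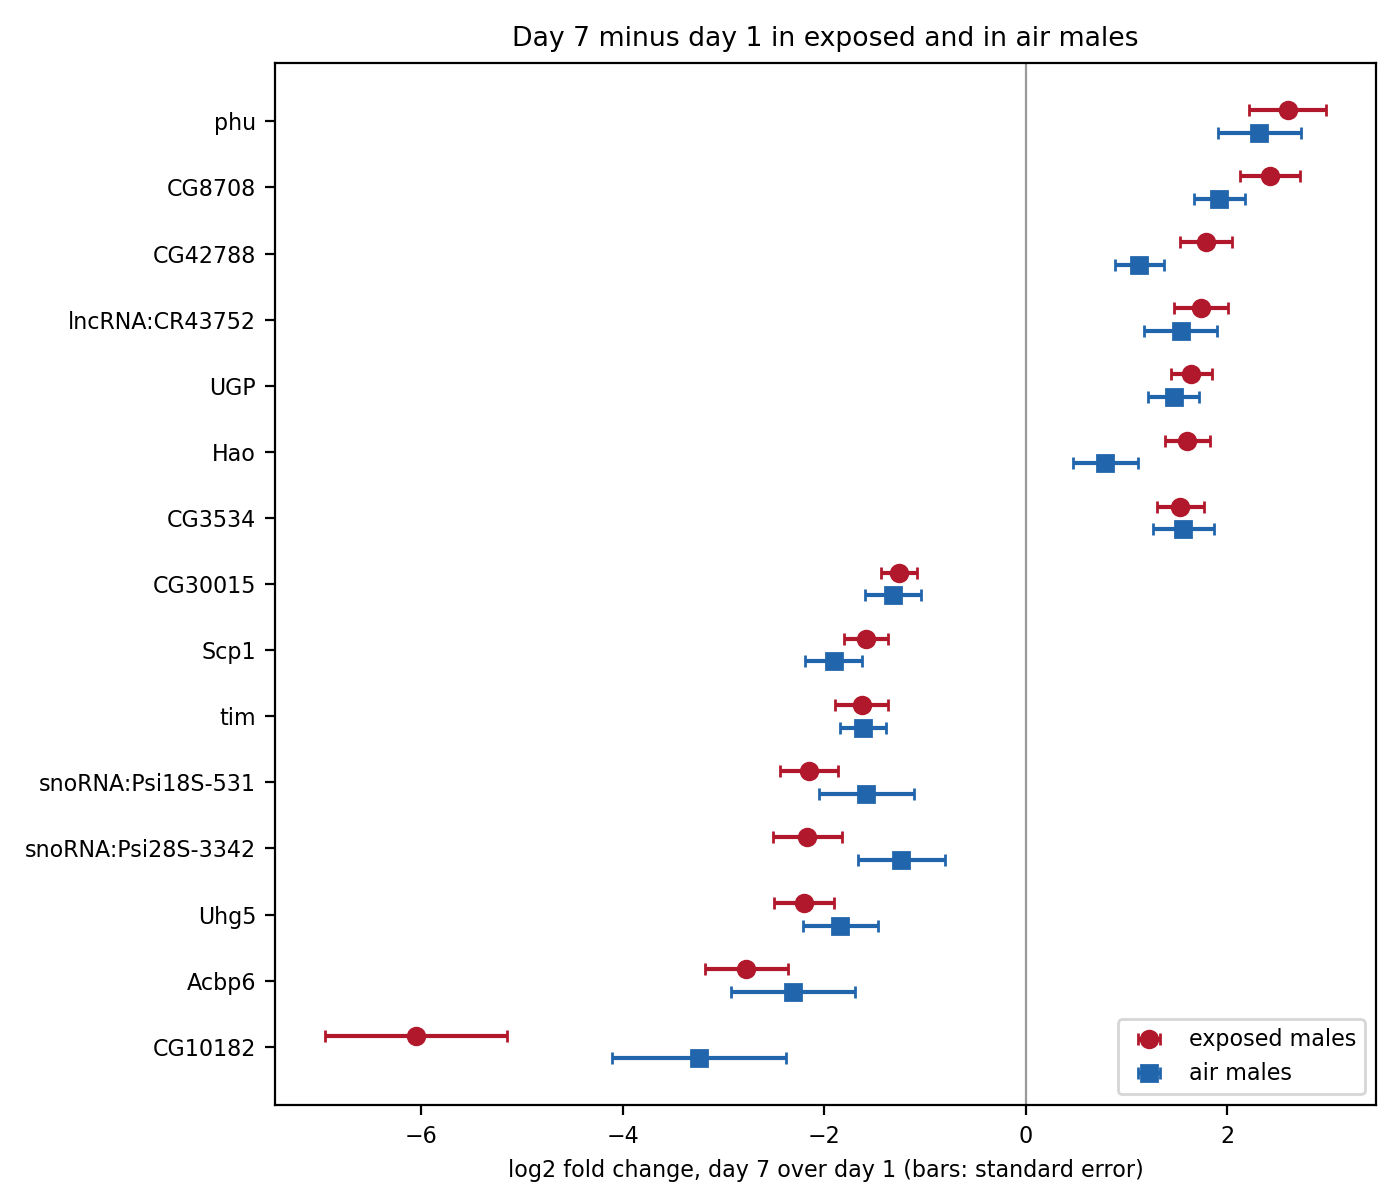
Log2 fold change of day 7 over day 1 (horizontal axis, with standard errors) for the 15 genes past the test in exposed males, as red circles for exposed males above blue squares for air males. Every gene has both markers on the same side of 0, with CG10182 showing the lowest value in exposed males.

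These counts depended on single libraries. The test of any difference gave 1, 1 and 3 genes without replicates 1, 2 and 3 of day 1, and 0, 2 and 1 without those of day 7. Day 7 minus day 1 gave 0, 1 and 4 genes without replicates 1, 2 and 3 of day 1, and 0, 4 and 0 without those of day 7. Without replicate 1 or replicate 2 of day 2, which leaves a lone library on that day that is assumed to vary like the other groups, 51 genes passed between days 7 and 1, and 47 or 42 in the test of any difference. DESeq2 on the 8 libraries called 385 genes between days 7 and 1 and 310 for any difference. With the library left out for female RNA added, 0 genes passed in edgeR in either test.

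Day 2 was compared with day 1 to see the first step of the course. No gene passed in edgeR (0 higher and 0 lower of 12690), 1249 (9.84%) had an unadjusted p below 0.05, and DESeq2 called 107, with 53 higher and 54 lower. Full separation of the 2 days was seen in 26% of genes. The genes named here have the 5 smallest p-values in each direction, and none of them passed.

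On the higher side, CG16986 (FBgn0035356, 3L:2600331-2601536, plus strand) had 19.0, 21 and 23.7 CPM on day 1, 62.7 and 117 CPM on day 2, and 31.6, 35.9 and 45.1 CPM on day 7, a log2 fold change of 2.08 (adjusted p = 0.0755, SE 0.28), with day 7 between the other days. CG16986 passed the test of any difference (adjusted p = 0.0342). Hao gave 1.61 (adjusted p = 0.0755, SE 0.24), and its levels on days 2 and 7 overlapped. Ugt302C1 (FBgn0040259, 3R:11157098-11159744, plus strand), a UDP-glycosyltransferase of the detoxification family, had 4.86, 7.00 and 6.82 CPM on day 1, 17.1 and 28.2 CPM on day 2, and 16.8, 17.6 and 15.5 CPM on day 7, with a value of 1.86 (adjusted p = 0.0755, SE 0.29). For Arf1 (FBgn0010348, 3L:22868380-22872231, minus strand), a small GTPase of Golgi traffic, the levels were 26.3, 26.9 and 27.7 CPM on day 1, 63.7 and 119.5 CPM on day 2, and 77.8, 50.3 and 54.5 CPM on day 7 and the value 1.77 (adjusted p = 0.0755, SE 0.28). CG11151 (FBgn0030519, X:13739744-13741952, plus strand) had 93.2, 98.7 and 97.2 CPM on day 1, 213 and 240.0 CPM on day 2, and 197, 152 and 181 CPM on day 7 and a value of 1.23 (adjusted p = 0.0755, SE 0.20). For all 5, each of the 3 libraries of day 1 lay below every later library.

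On the lower side, Lsp2 (FBgn0002565, 3L:12129393-12131869, plus strand), a larval serum storage protein of the fat body, had 307, 238 and 188 CPM on day 1, 34.8 and 71.7 CPM on day 2, and 96.9, 87.3 and 66.9 CPM on day 7, a log2 fold change of -2.20 (adjusted p = 0.0755, SE 0.34). Both libraries of day 2 and all 3 of day 7 lay below every library of day 1, and Lsp2 passed the test of any difference (adjusted p = 0.0342). NADK, the NAD kinase gene, whose product makes NADP, had 85.3, 71.8 and 76.9 CPM on day 1, 28.7 and 23.8 CPM on day 2, and 32.2, 35.2 and 46.5 CPM on day 7 and a value of -1.57 (adjusted p = 0.0755, SE 0.24); it too passed the test of any difference (adjusted p = 0.0345). NADK was not matched to a single entry of the annotation, so no position is given. Try29F (FBgn0015316, 2L:8998537-8999816, plus strand), a trypsin family gene, had 31.2, 29.2 and 26.1 CPM on day 1, 6.81 and 3.67 CPM on day 2, and 19.9, 11.4 and 9.14 CPM on day 7, with a value of -2.45 (adjusted p = 0.0755, SE 0.39). Acbp6 gave -2.62 (adjusted p = 0.119, SE 0.47) and CG30015 -1.13 (adjusted p = 0.119, SE 0.21). The alanine tRNA gene tRNA:Ala-TGC-1-1, chosen after its values were seen, passed the test of any difference (adjusted p = 0.0428) with 98.2, 22.4 and 6.34 CPM on day 1, 0.314 and 0.111 CPM on day 2, and 0.394, 2.29 and 0 CPM on day 7; day 1 replicate 1 was far above the others, and copies of such genes are near identical.

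In air males 197 genes rose over the same step (1.59% of 12399) and 68 fell (0.548%). An unadjusted p below 0.05 was seen in 1616 genes (13%) there. Air day 2 had 3 libraries and exposed day 2 had 2, so the counts of the 2 arms rest on unequal numbers. Of the 10 genes named for this step, 3 also passed in air males, all as lower. Lsp2 had 152 to 246 CPM on day 1, 11.7 to 46 CPM on day 2, and 42.9 to 82.1 CPM on day 7 there and a change of -2.54 (adjusted p = 0.00489, SE 0.42). Acbp6 changed by -4.14 (adjusted p = 0.00489, SE 0.68) and Try29F by -1.57 (adjusted p = 0.0488, SE 0.38) in air males. The other 7 did not pass there. Their air values were -0.71 (adjusted p = 0.195) for NADK and 0.71 (adjusted p = 0.427) for CG11151. They were 0.46 (adjusted p = 0.832) for Ugt302C1, 0.32 (adjusted p = 0.756) for Hao and 0.28 (adjusted p = 0.841) for CG16986. For Arf1 the air value was 0.03 (adjusted p = 0.987) and for CG30015 -0.24 (adjusted p = 0.795). Tests of the difference from exposed males are given further on for Hao, Arf1 and CG16986.

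Day 7 was set against day 2 for the later step. Only phu passed in edgeR, with a rise of 5.11 (adjusted p = 0.00900, SE 0.54) on the log2 scale. That is 0.00788% of genes tested. No gene fell (0 of 12690), and 438 (3.45%) had an unadjusted p below 0.05. DESeq2 called 22 higher and 8 lower. The call of phu was lost without day 2 replicate 2 (log2 fold change 4.57, adjusted p = 0.147) and with the library left out for female RNA (4.38, adjusted p = 0.197), and 14 genes passed without day 2 replicate 1. Full separation of the 2 days was seen in 18.5% of genes. In air males, with 3 libraries on day 2, 30 genes rose over this step (0.242% of 12399) and 69 fell (0.556%). There phu also rose, by 2.62 (adjusted p = 0.00943, SE 0.42).

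Among the next genes by p-value, none past the threshold, 4 were higher on day 7. MtnE (FBgn0262146, 3R:20534021-20534704, minus strand), a metallothionein, had 176, 243 and 142 CPM on day 1, 84.5 and 105 CPM on day 2, and 286, 346 and 394 CPM on day 7, a log2 fold change of 1.86 (adjusted p = 0.0768, SE 0.28). MtnD (FBgn0053192, 3R:20534962-20535301, plus strand), a metallothionein beside it on the chromosome, had 131, 66.4 and 45.4 CPM on day 1, 36.1 and 36.1 CPM on day 2, and 177, 353 and 194 CPM on day 7, with 2.74 (adjusted p = 0.103, SE 0.45). The odorant binding protein gene Obp99b (FBgn0039685, 3R:29716254-29716896, minus strand) had 322, 267 and 294 CPM on day 1, 121 and 161 CPM on day 2, and 379, 552 and 433 CPM on day 7, with 1.69 (adjusted p = 0.0768, SE 0.25). The cuticle protein gene Cpr67Fb (FBgn0036110, 3L:10894173-10894693, plus strand) had 111, 84.5 and 109.6 CPM on day 1, 50.8 and 64.0 CPM on day 2, and 206, 197 and 417 CPM on day 7, with 2.25 (adjusted p = 0.0795, SE 0.35). All 4 were lowest on day 2, and MtnE, Obp99b and Cpr67Fb passed the test of any difference (adjusted p = 0.0470, 0.0470 and 0.0342). CG8745 (FBgn0036381, 3L:13860027-13866905, minus strand), also past that test and outside the naming rule, had 107, 192 and 139.9 CPM on day 1, 149 and 75.3 CPM on day 2, and 494, 422 and 429 CPM on day 7, with day 7 above all other exposed libraries. In air males CG8745 rose over this step too, by 1.53 (adjusted p = 0.00898, SE 0.24). CG8745, MtnE and Cpr67Fb passed the test of any difference in air males (adjusted p = 0.00179, 6.80e-04 and 0.0236), and Obp99b did not (adjusted p = 0.144).

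Lower on day 7 than on day 2, again without passing, CG13325 (FBgn0033792, 2R:13110769-13126014, plus strand) had 8.48, 11.7 and 13.4 CPM on day 1, 19.2 and 29.5 CPM on day 2, and 2.66, 5.71 and 4.75 CPM on day 7 and a log2 fold change of -2.51 (adjusted p = 0.0768, SE 0.37). The cytochrome P450 gene Cyp4e3 (FBgn0015035, 2L:9747839-9750071, minus strand) had 56.7, 79.5 and 64.5 CPM on day 1, 67.9 and 1519 CPM on day 2, and 69.0, 51.6 and 68.5 CPM on day 7. Its value of -3.65 (adjusted p = 0.530, SE 0.79) came from day 2 replicate 2, and without that library it was -0.11. Without day 2 replicate 1, which leaves that library alone on day 2, it was -4.59 (adjusted p = 1.02e-05). Scp1 gave -1.14 (adjusted p = 0.389, SE 0.23) and CG16986 gave -1.26 (adjusted p = 0.539, SE 0.28). CG6041 (FBgn0029826, X:5948160-5950208, plus strand) had 13.3, 11.6 and 10.6 CPM on day 1, 22.6 and 21.5 CPM on day 2, and 8.96, 7.31 and 11.7 CPM on day 7, with -1.23 (adjusted p = 0.588, SE 0.28).

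Whether any change between days differed between exposed and air males was tested in 1 fit of 17 male libraries (13216 genes). No gene passed for any difference or for any of the 3 steps in edgeR (0 of 13216 in each), with unadjusted p below 0.05 in 581 (4.4%), 689 (5.21%), 535 (4.05%) and 641 (4.85%) genes. DESeq2 called 4 genes for any difference, 15 for day 2 minus day 1, 0 for day 7 minus day 2 and 1 for day 7 minus day 1. Exposed minus air, phu had a difference of 2.5 (adjusted p = 0.979, SE 0.68) for day 7 minus day 2 and 0.29 (adjusted p = 0.973, SE 0.58) for day 7 minus day 1. For day 2 minus day 1 the differences were 1.29 (adjusted p = 0.923, SE 0.43) for Hao, 1.73 (adjusted p = 0.706, SE 0.49) for Arf1 and 1.80 (adjusted p = 0.833, SE 0.55) for CG16986. The snoRNA snoRNA:Psi18S-531, at 11.6 to 32.6 CPM on day 1, 21.6 to 89.9 CPM on day 2, and 5.95 to 9.84 CPM on day 7 in air males, had -3.11 (adjusted p = 0.178, SE 0.64). In simulated data of this design, 4-fold changes were recovered at 22%, 33% and 37% for the 3 steps, so changes of that size could be missed. Of the genes called in those data, 8.33%, 13.2% and 7.14% were false. For any difference the false share was 7.69% with day 2 changed and 4.55% with day 7 changed. Without exposed day 2 replicate 1, 48, 55 and 77 genes of 13923 passed for any difference, day 2 minus day 1 and day 7 minus day 2. Exposed day 2 is then replicate 2 alone, assumed to vary like the other groups, so these counts compare that library and not the day. Without air day 2 replicate 3, 6 genes passed for any difference and 23 for day 7 minus day 2.

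Gene groups were described by 33 lists, since so few single genes passed. Across all genes tested the median log2 fold change was 0.00 for day 2 minus day 1, -0.01 for day 7 minus day 2 and 0.00 for day 7 minus day 1. Beside the test, members are counted by the looser threshold of the series text, a fold above 1.5 with an unadjusted p under 0.05. In exposed males 4.7% of all genes met it as higher and 3.92% as lower on day 2 than on day 1. For day 7 against day 2 these shares were 1.56% and 1.47%, and for day 7 against day 1 they were 6.34% and 6.36%. In air males the shares were 6.04% and 4.77%, 3.76% and 4.26%, and 5.41% and 6.61% for the 3 steps in that order, and 13%, 9.59% and 14.8% had an unadjusted p below 0.05 (15.5% for any difference). For exposed minus air they were 2.85% and 2.31%, 1.79% and 2.22%, and 3.02% and 1.78%. None of the members counted so is called changed.

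**Figure D3:**
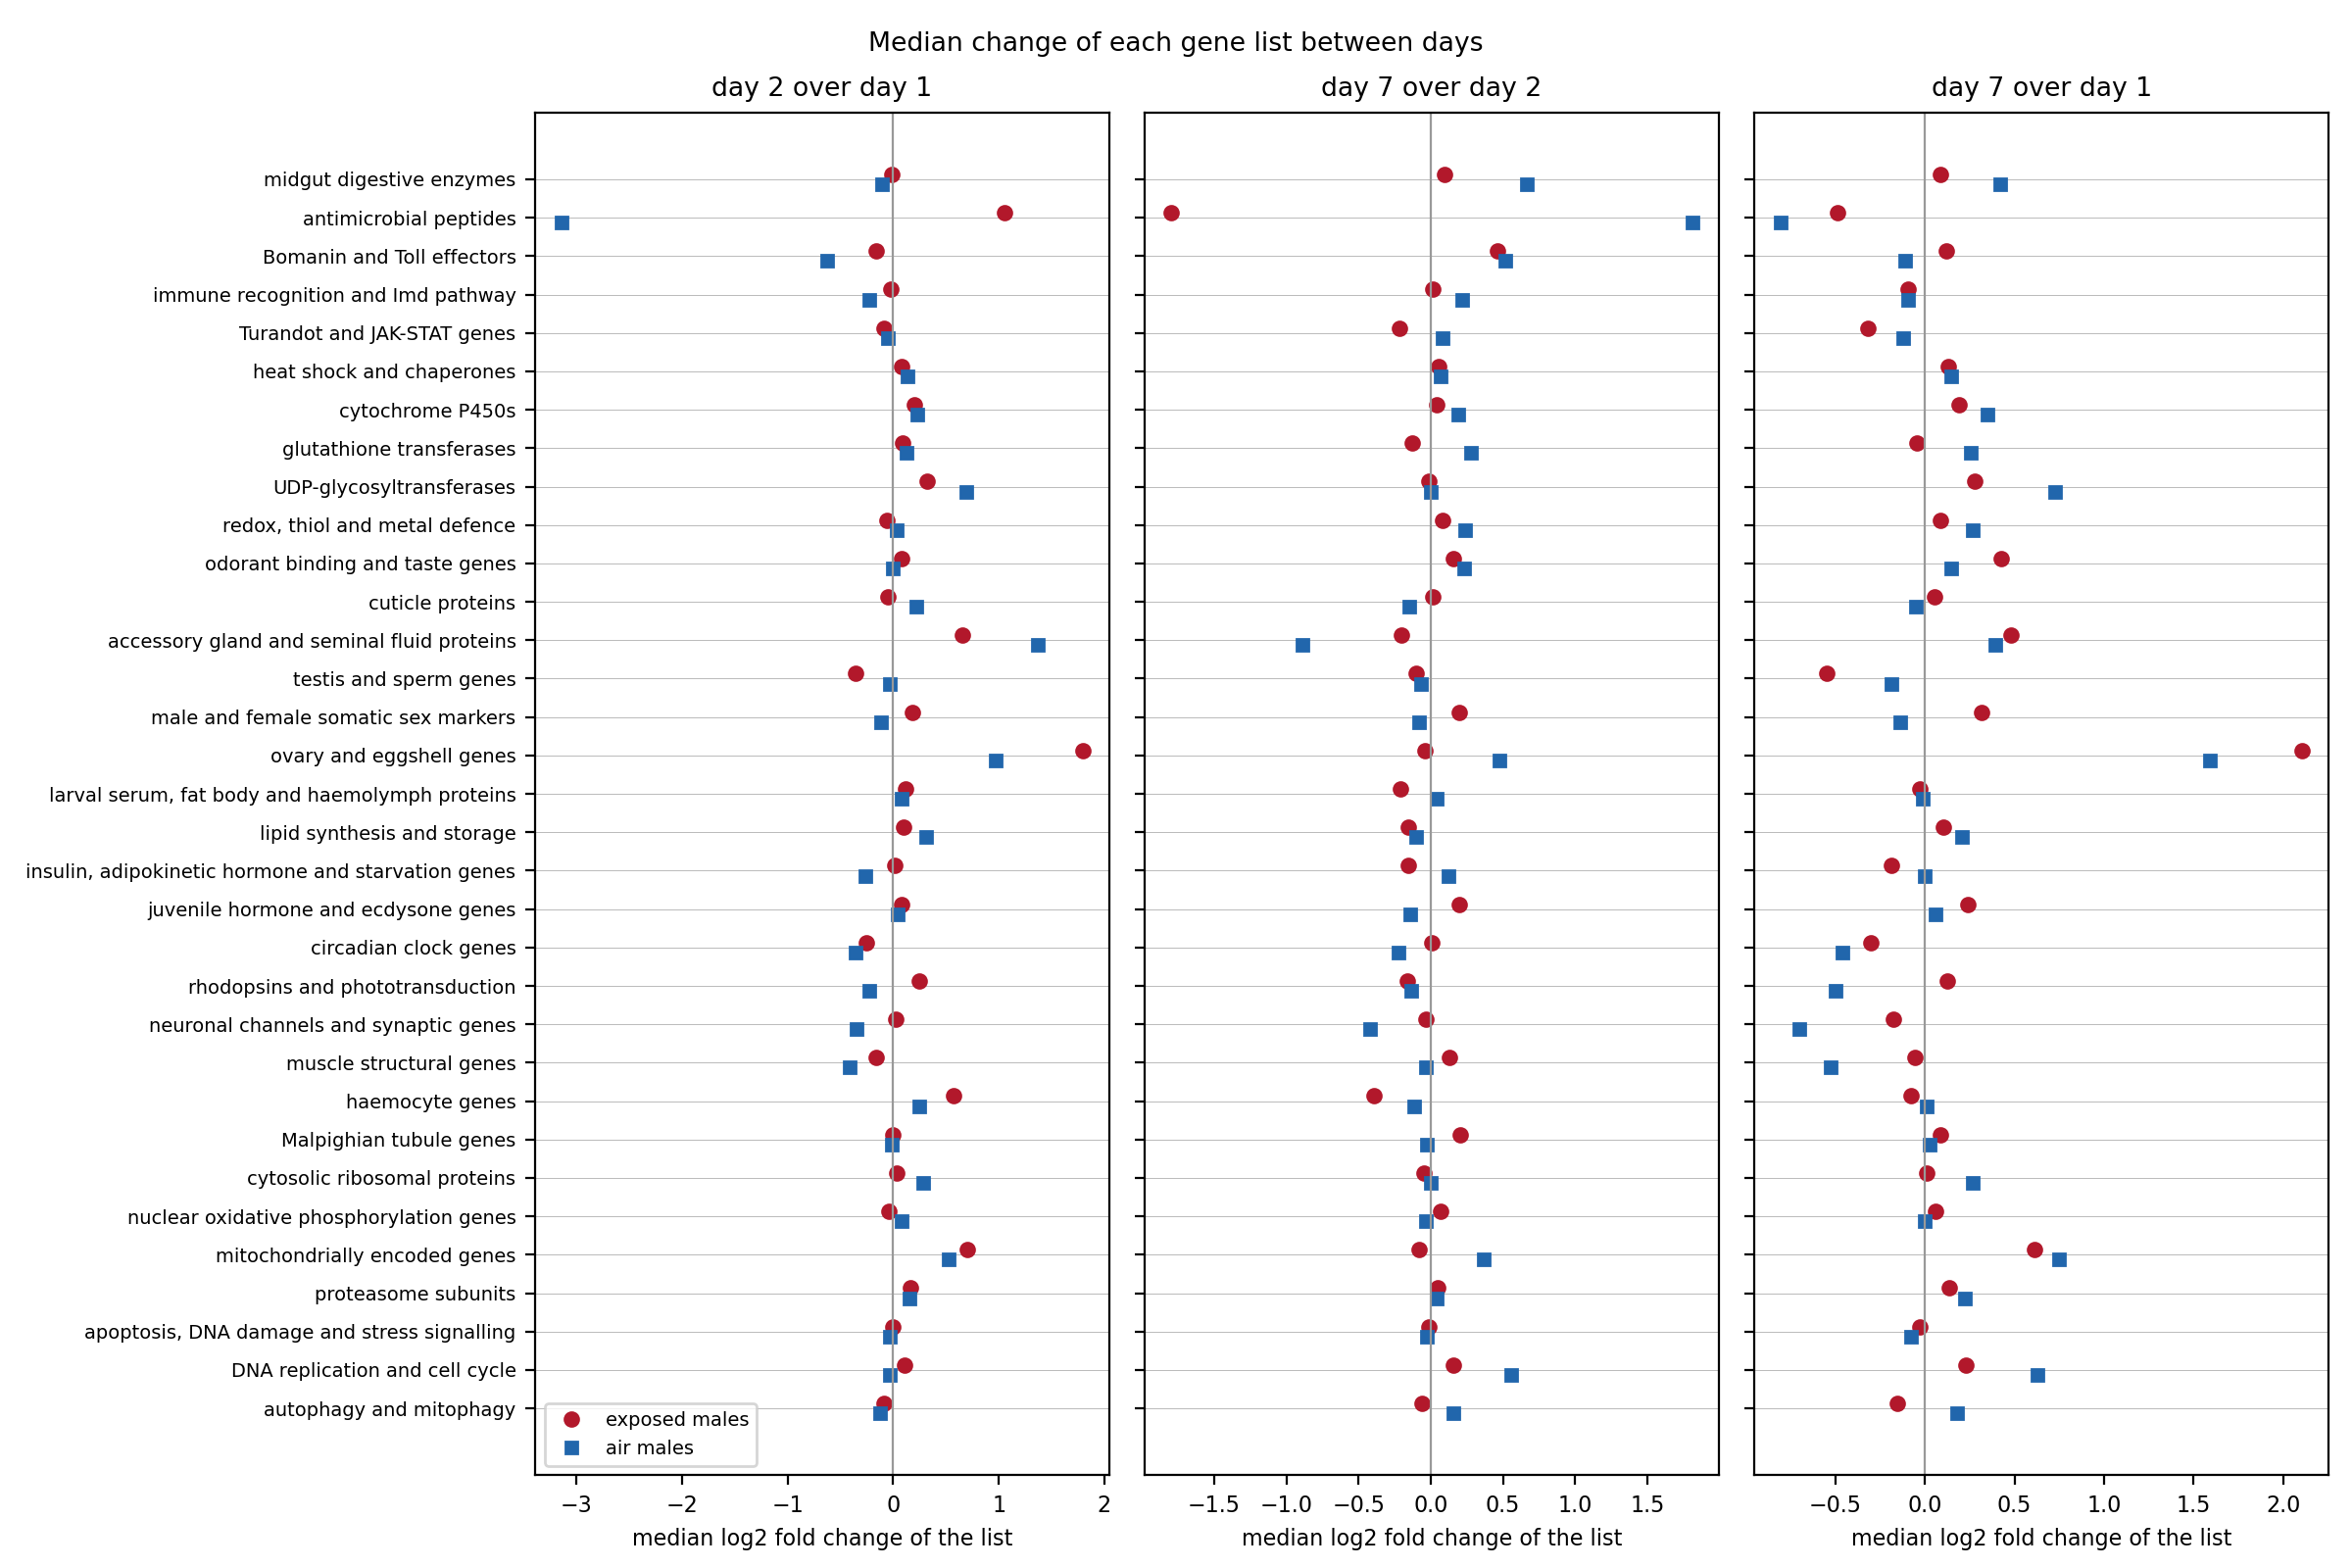
Median log2 fold change of each of 33 gene lists (rows) for the 3 comparisons of days (panels), as red circles for exposed males above blue squares for air males. Antimicrobial peptides lie on opposite sides of 0 in exposed and air males for day 2 over day 1 (1.06 and -3.15) and for day 7 over day 2 (-1.80 and 1.81); without exposed day 2 replicate 2 the exposed values were -1.08 and 0.14, on the side of the air values.

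Antimicrobial peptides, 19 of 20 tested, had no member past the test. Their median log2 fold change was 1.06 for day 2 minus day 1, -1.80 for day 7 minus day 2 and -0.49 for day 7 minus day 1, against -3.15, 1.81 and -0.81 in air males. Summed over the list, exposed males had 1411, 6671 and 2724 CPM on day 1, 3257 and 18409 CPM on day 2, and 3405, 4868 and 6483 CPM on day 7, and air males had 2099 to 10425 CPM on day 1, 604 to 1054 CPM on day 2, and 879 to 4975 CPM on day 7. Replicate 2 was the highest library of its day on days 1 and 2, and day 2 replicate 2 held the highest exposed level of 10 of the 20 genes. Without that library the median was -1.08 for day 2 minus day 1 and 0.14 for day 7 minus day 2, so both signs rest on it. Without day 1 replicate 2 the median was 0.59 for day 7 minus day 1, so that sign rests on this library, and 2.06 for day 2 minus day 1.

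DptA, the Diptericin A gene of the Imd pathway, had 113, 181 and 67.4 CPM on day 1, 509 and 723 CPM on day 2, and 65.2, 95.1 and 318 CPM on day 7, with both libraries of day 2 above all others. DptA gave 2.35 (adjusted p = 0.247, SE 0.57) for day 2 minus day 1 and -1.95 (adjusted p = 1.00, SE 0.56) for day 7 minus day 2. In air males DptA had 59.0 to 602 CPM on day 1, 7.93 to 26.7 CPM on day 2, and 12.7 to 245 CPM on day 7, so the 3 air libraries of day 2 lay below those of air day 1. The difference between the changes was 6.51 (adjusted p = 0.173, SE 1.26), which did not pass. Mtk, encoding Metchnikowin, had 45.0, 606 and 150.2 CPM on day 1, 277 and 3598 CPM on day 2, and 233, 273 and 704 CPM on day 7, and Dro, encoding Drosocin, had 303, 1706 and 1525 CPM on day 1, 1253 and 6381 CPM on day 2, and 2361, 814 and 3763 CPM on day 7. The differences exposed minus air for day 2 minus day 1 were 8.04 (adjusted p = 0.173, SE 1.49) for Mtk and 6.44 (adjusted p = 0.178, SE 1.33) for Dro. By the looser threshold 4 peptides were higher and 1 lower on day 2 than on day 1 in exposed males, and 0 and 14 in air males.

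Turandot and JAK-STAT genes (14 tested, none past the test) had medians of -0.09, -0.22 and -0.32 for the 3 steps, with 6 of them positive for day 2 minus day 1. Leaving out 1 exposed library at a time put the median between -0.49 and 0.25 for day 2 minus day 1, and without day 1 replicate 2 it was 0.74 for day 7 minus day 1. Among them, TotM and TotA encode secreted stress proteins. TotM had 185, 1826 and 264 CPM on day 1, 492 and 3617 CPM on day 2, and 203, 214 and 703 CPM on day 7 and TotA 228, 904 and 228 CPM on day 1, 795 and 2237 CPM on day 2, and 329, 336 and 832 CPM on day 7. Day 1 replicate 2 and day 2 replicate 2 were the highest for both. TotM gave 1.44 (adjusted p = 0.650, SE 0.94) for day 2 minus day 1. Bomanins and other Toll effectors, 21 genes tested, had medians of -0.16, 0.46 and 0.12 for the 3 steps and 0 members past either threshold in exposed males. Their summed level was 15067, 26935 and 12134 CPM on day 1, 6045 and 26227 CPM on day 2, and 10227, 43018 and 15419 CPM on day 7, highest in day 7 replicate 2. BomBc1 had 157, 361 and 142 CPM on day 1, 25.6 and 224 CPM on day 2, and 41.9, 1258 and 77.7 CPM on day 7, again highest in that library. Haemocyte genes had negative values of day 7 minus day 2 in all 16 tested members, with a median of -0.40, and 0 members met the looser threshold. Without day 2 replicate 2 the median was -0.20.

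Defence against thiol-reactive compounds and metals gave 34 tested genes, 1 of which, MtnE, passed the test of any difference. List medians were -0.06, 0.08 and 0.09, and by the looser threshold 5 members were higher and 0 lower on day 7 than on day 2. In air males 9 members were higher and 0 lower over that step, with a list median of 0.24. The metallothioneins MtnB and MtnC followed MtnD and MtnE: MtnB had 11.4, 5.70 and 4.23 CPM on day 1, 3.77 and 6.56 CPM on day 2, and 25.1, 41.4 and 12.6 CPM on day 7 and MtnC 202, 73.2 and 54.4 CPM on day 1, 72.1 and 32.7 CPM on day 2, and 239, 229 and 209 CPM on day 7. On day 7 the libraries of MtnB, MtnD and MtnE lay above both of day 2, as did those of MtnC, but none of the 4 passed for day 7 minus day 2 in exposed males. Air males rose over that step for MtnD, by 4.04 (adjusted p = 9.28e-07, SE 0.23), and for MtnE, by 3.14 (adjusted p = 7.01e-04, SE 0.33). Exposed minus air, the differences were -1.29 (adjusted p = 1.00, SE 0.47) for MtnD and -1.28 (adjusted p = 1.00, SE 0.44) for MtnE. The peroxiredoxin gene Prx2540-1 had 106, 1667 and 175 CPM on day 1, 66.7 and 109 CPM on day 2, and 137, 114 and 107 CPM on day 7, with 1 library of day 1 apart from all others.

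Detoxification enzymes had no member past the test. Medians for day 2 minus day 1, day 7 minus day 2 and day 7 minus day 1 were 0.20, 0.04 and 0.19 for 74 cytochrome P450s. Glutathione transferases (37 genes) had 0.09, -0.13 and -0.05, and UDP-glycosyltransferases (27 genes) 0.32, -0.01 and 0.28. GstE1, which conjugates glutathione to reactive compounds, had 5.85, 8.38 and 7.59 CPM on day 1, 16.5 and 24.5 CPM on day 2, and 16.2, 18.3 and 20.2 CPM on day 7, so all 3 libraries of day 1 were below the later ones. Its value for day 7 minus day 1 was 1.33 (adjusted p = 0.0726, SE 0.26). GstZ2 had 15.8, 13.5 and 11.5 CPM on day 1, 22.9 and 30.8 CPM on day 2, and 26, 38.4 and 39.3 CPM on day 7, with 1.34 (adjusted p = 0.0635, SE 0.24). By the looser threshold 5 transferases were higher and 1 lower on day 7 than on day 1, beside 6 and 0 in air males. Heat shock genes and chaperones (22 tested) had medians between 0.06 and 0.13, and Hsp68 had 31.1, 76.3 and 32.1 CPM on day 1, 53 and 92.2 CPM on day 2, and 79.3, 199.9 and 39.9 CPM on day 7, highest in day 7 replicate 2.

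**Figure D4:**
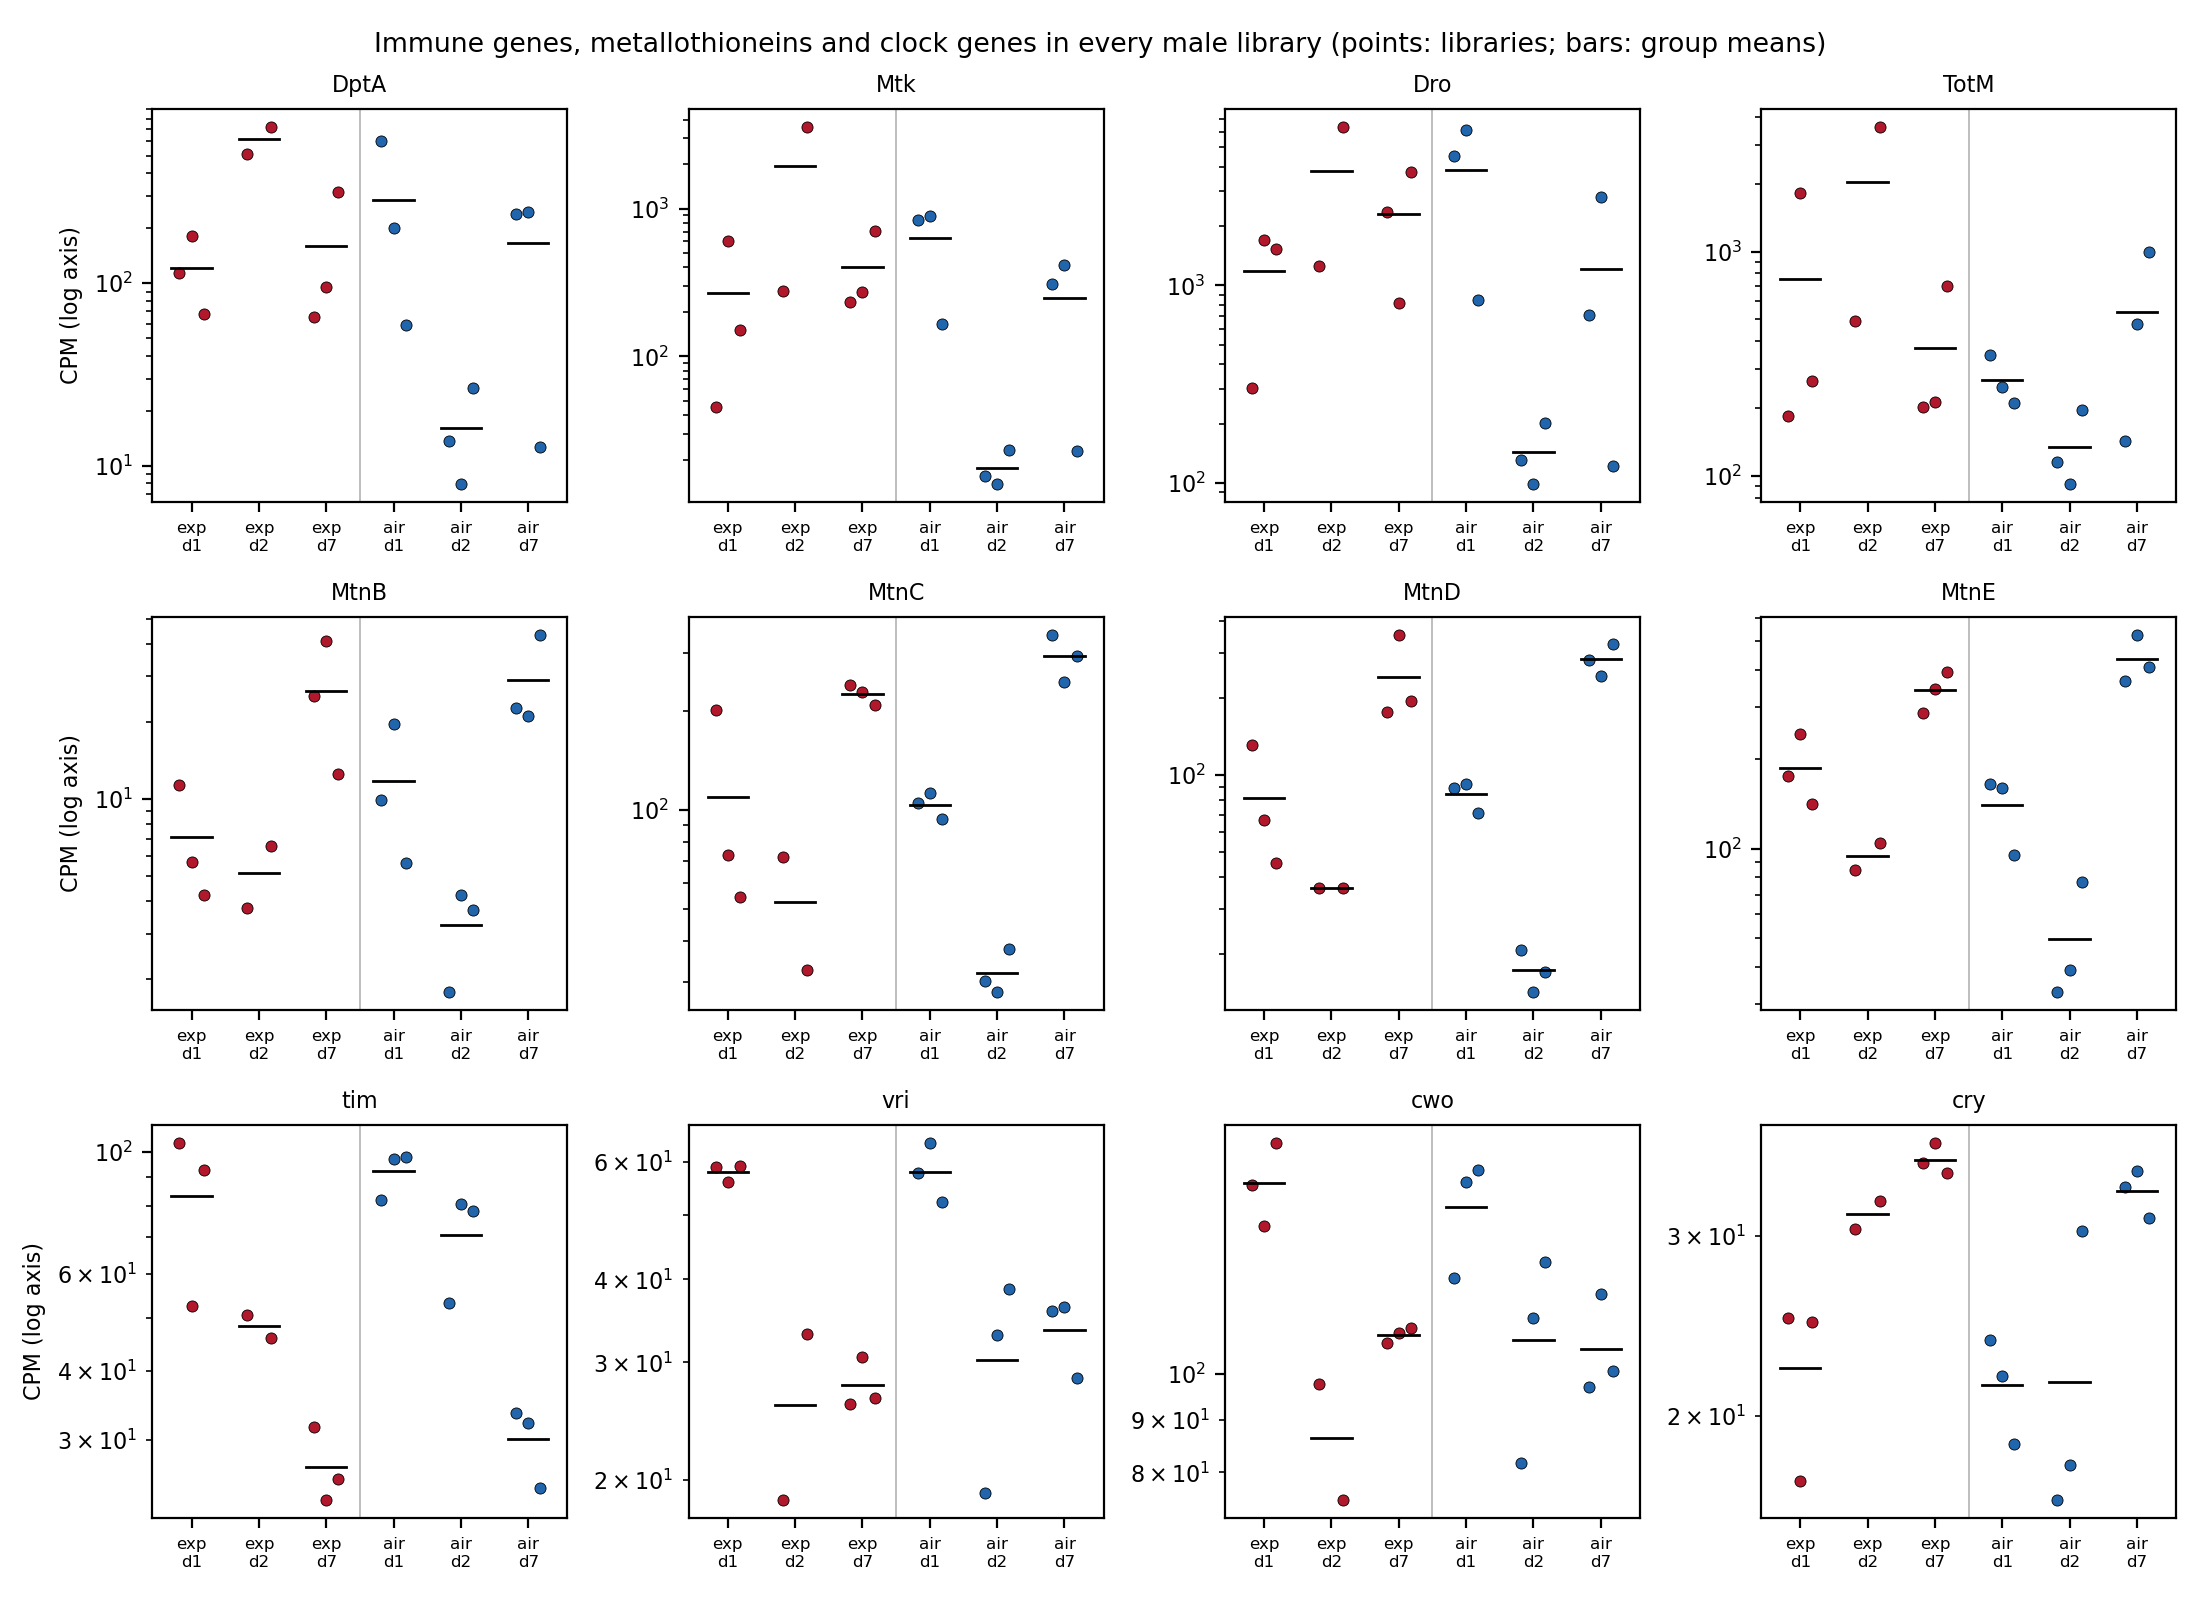
Levels of 12 listed genes in every male library, in CPM on a log axis, with exposed males (red) left of air males (blue) and days 1, 2 and 7 in order; points are libraries and bars group means. The top row holds the immune genes DptA, Mtk, Dro and TotM, the middle row the metallothioneins MtnB to MtnE, lowest on day 2 by group mean in both arms, and the bottom row the clock genes tim, vri, cwo and cry.

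Clock genes (15 tested) had 1 member past the test, tim, for day 7 minus day 1, and medians of -0.26, 0.01 and -0.30. By the looser threshold 3 were higher and 5 lower on day 7 than on day 1 in exposed males, beside 2 and 6 in air males. The repressor gene vri (FBgn0016076, 2L:5288944-5311223, plus strand) had 59.0, 56.0 and 59.2 CPM on day 1, 18.7 and 33.1 CPM on day 2, and 26, 30.6 and 26.6 CPM on day 7, with -1.07 (adjusted p = 0.0899, SE 0.23) for day 7 minus day 1. Pdfr (FBgn0260753, X:2552206-2578640, plus strand), the receptor of the neuropeptide Pdf, had 135, 123 and 177 CPM on day 1, 83.4 and 115 CPM on day 2, and 82.8, 82.7 and 94.0 CPM on day 7, with -0.74 (adjusted p = 0.148, SE 0.21). The photoreceptor gene cry (FBgn0025680, 3R:19212154-19215442, plus strand) had 24.9, 17.3 and 24.7 CPM on day 1, 30.5 and 32.5 CPM on day 2, and 35.3, 37.0 and 34.5 CPM on day 7, with 0.68 (adjusted p = 0.174, SE 0.21). All of day 7 lay below day 1 for vri and Pdfr and above it for cry. In air males the values were -0.78 for vri, -0.87 for Pdfr and 0.64 for cry, none past the test (adjusted p = 0.163, 0.168 and 0.254).

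Seminal fluid proteins of the accessory gland, 59 tested and none past the test, had positive values of day 2 minus day 1 in 57 genes, with a median of 0.66. Summed levels were 37768, 31634 and 35532 CPM on day 1, 74642 and 22901 CPM on day 2, and 44030.1, 37052 and 55939 CPM on day 7. Replicate 1 of day 2 was the highest exposed library and replicate 2 the lowest. Without replicate 1 of day 2 the median was -0.20 and without replicate 2 it was 1.21. Air males had 34036 to 40637 CPM on day 1, 79488 to 115119 CPM on day 2, and 42955 to 49167 CPM on day 7, with a median of 1.37 for day 2 minus day 1 and 55 genes higher by the looser threshold, against 19 in exposed males. Acp76A, a seminal serpin, had 14, 16.1 and 25.5 CPM on day 1, 159.6 and 14.9 CPM on day 2, and 43.0, 40.4 and 49.6 CPM on day 7. The list's median for day 7 minus day 1 was 0.48.

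Testis and sperm genes (59 tested, none past the test) had a median of -0.55 for day 7 minus day 1, with 2 higher and 21 lower by the looser threshold, beside -0.18, 1 and 0 in air males. The difference between arms was not tested for the list. No single gene passed exposed minus air for this step in edgeR (0 of 13216). The sperm gene Mst84Da had 686, 731 and 772 CPM on day 1, 588 and 505 CPM on day 2, and 503, 308 and 374 CPM on day 7, and Mst84Db 566, 575 and 633 CPM on day 1, 429.6 and 418 CPM on day 2, and 371, 296 and 343 CPM on day 7. For fzo, the mitochondrial fusion gene of spermatids, the levels were 22.9, 28.0 and 25.4 CPM on day 1, 19.5 and 12.9 CPM on day 2, and 13.6, 7.77 and 8.19 CPM on day 7, with -1.35 (adjusted p = 0.0794, SE 0.28). All 3 were lower on day 7 than on day 1 in every library. Summed over the list, exposed males had 17945, 19012 and 22045 CPM on day 1, 29921 and 13453 CPM on day 2, and 19794, 14426 and 21708 CPM on day 7. The list also holds Mst57Da, Mst57Db and Mst57Dc, so the sum is not the level of sperm genes alone. On day 2 the sperm genes Mst87F and dj lay closer together, at 397 and 355 CPM and at 453 and 339 CPM of the library total. The part of single members in the sum was not tested.

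Ovary and eggshell genes were mostly near the floor in these males. Among them exu, which is also active in the male germ line, had 215, 188 and 177 CPM on day 1, 158 and 101 CPM on day 2, and 134, 116 and 98.7 CPM on day 7, and 16 of 35 reached 5 CPM in any of the 8 libraries and 4 did so on day 1. Over 23 tested genes the median was 1.80 for day 2 minus day 1 and 2.11 for day 7 minus day 1, with none past the test. The chorion gene Cp38 had 1.40, 2.33 and 2.40 CPM on day 1, 3.46 and 37.9 CPM on day 2, and 67.9, 44.3 and 7.36 CPM on day 7 and Cp19 0.659, 1.73 and 1.34 CPM on day 1, 1.05 and 7.67 CPM on day 2, and 12.1, 82.9 and 2.61 CPM on day 7, so day 2 replicate 2 and day 7 replicates 1 and 2 were the highest for both. Yolk protein Yp1 stood at 73.2 CPM in day 2 replicate 2 and 176 CPM in day 7 replicate 2, in CPM of the library total. Without day 2 replicate 2 the median of day 2 minus day 1 was 0.06, and without day 7 replicate 1 that of day 7 minus day 1 was 0.76. Summed over the list, exposed males had 246, 243 and 244 CPM on day 1, 207 and 342 CPM on day 2, and 389, 526 and 149.6 CPM on day 7, and air males had 207 to 269 CPM on day 1, 164 to 258 CPM on day 2, and 175 to 309 CPM on day 7. The oocyte gene osk lay between 0 and 0.205 CPM in the 8 libraries. The part of such female RNA in the other results was not tested.

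**Figure D5:**
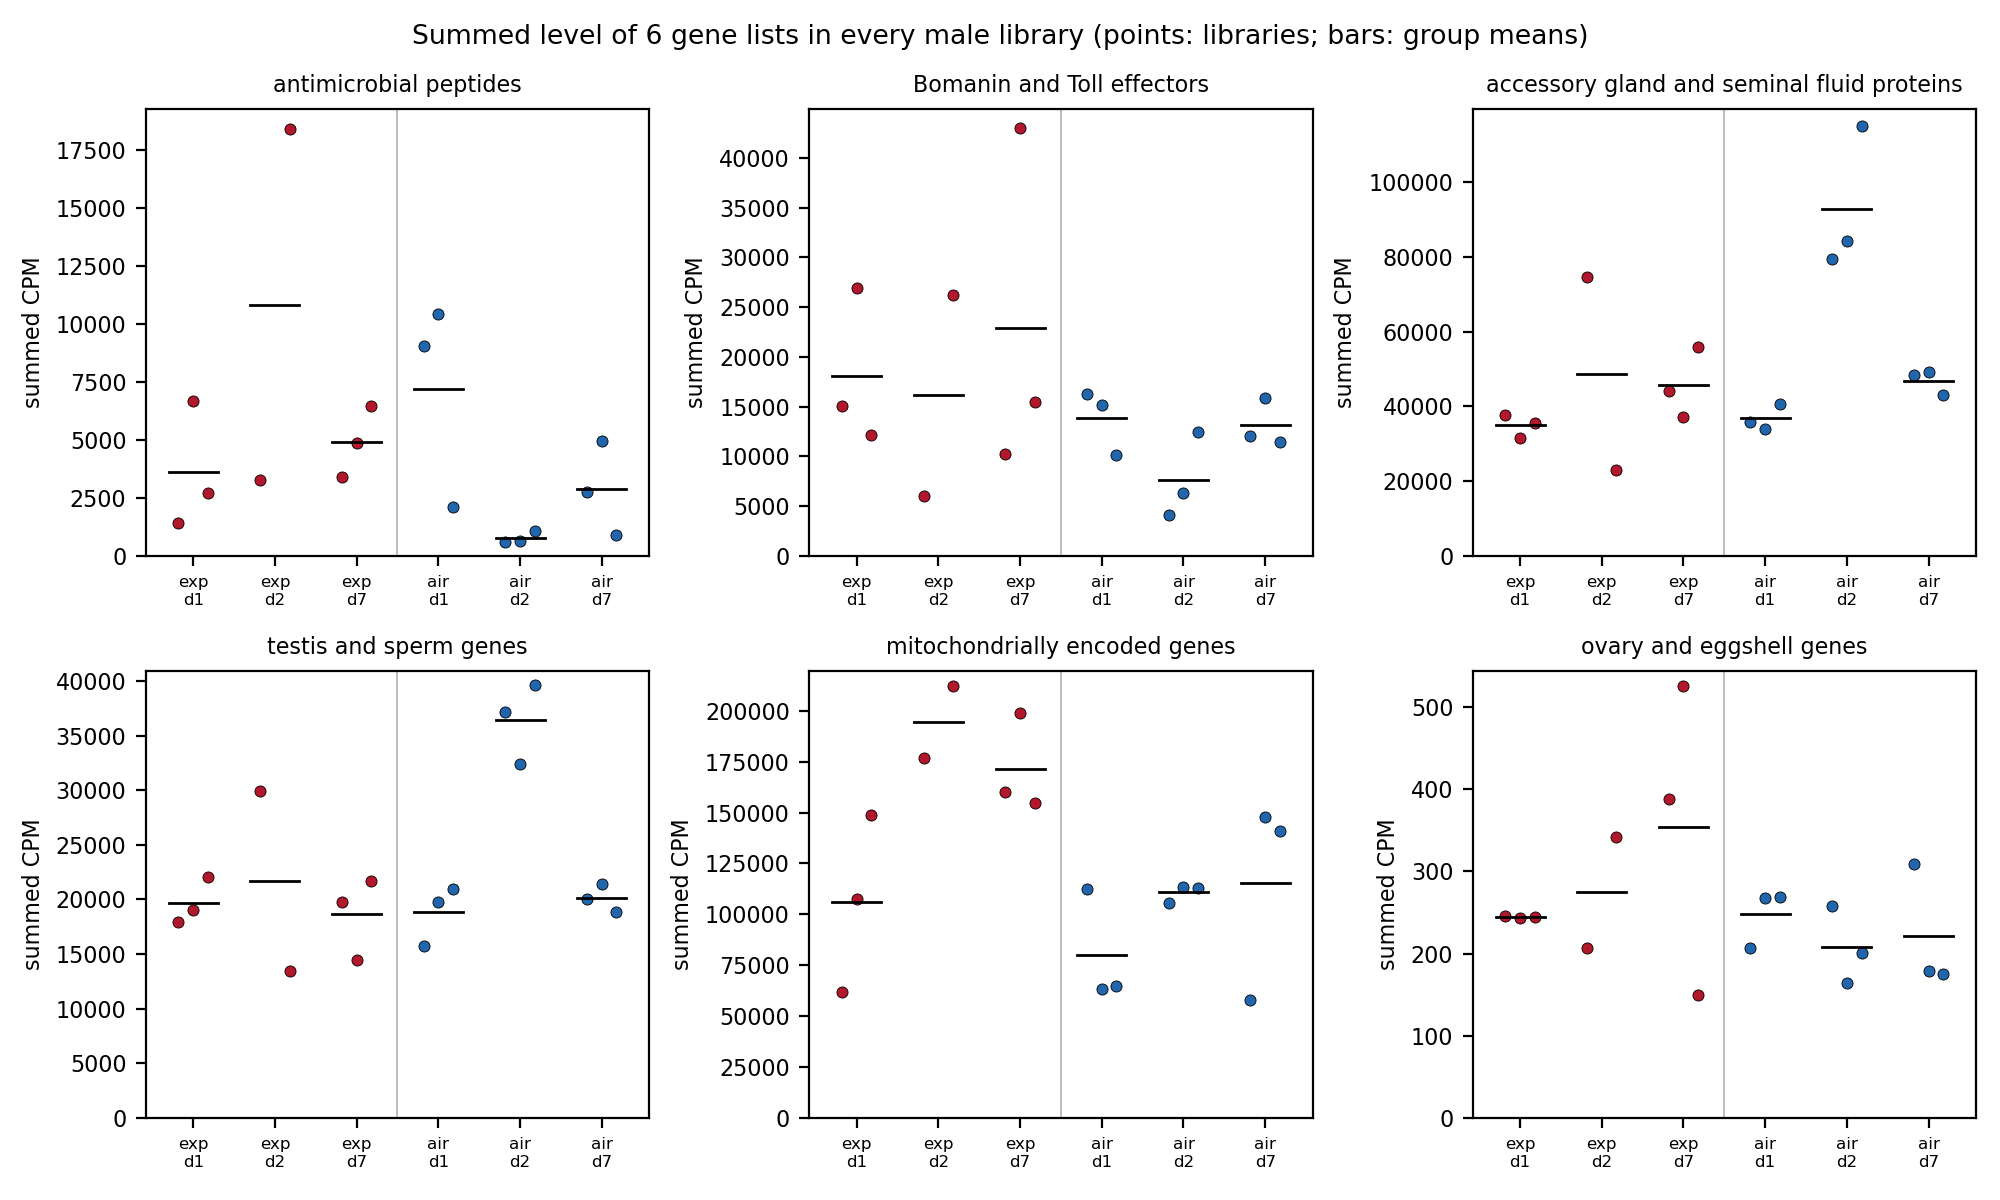
Summed CPM of 6 gene lists in every male library, on linear axes from 0, with exposed males (red) left of air males (blue) and days 1, 2 and 7 in order; points are libraries and bars group means. Antimicrobial peptides are highest in exposed day 2 replicate 2 (18409 CPM), and the pair of exposed day 2 libraries lie far apart for the seminal fluid proteins (74642 and 22901 CPM).

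Mitochondrially encoded genes, subunits of the respiratory chain and ribosomal RNAs (15 tested, none past the test), had medians of 0.70 for day 2 minus day 1 and 0.61 for day 7 minus day 1. The large ribosomal RNA took 3.94%, 7.16% and 12.2% of counts on day 1, 13.1% and 15.2% on day 2, and 12.9%, 12.7% and 10.9% on day 7, so day 1 replicate 1 was the lowest. ND5, a subunit of complex I, had 122, 181 and 192 CPM on day 1, 341 and 651 CPM on day 2, and 494, 428 and 370.1 CPM on day 7, with 1.39 (adjusted p = 0.0726, SE 0.27) for day 7 minus day 1. COX3, a subunit of cytochrome oxidase, had 2747, 4199 and 3886 CPM on day 1, 5602 and 7012 CPM on day 2, and 4996, 9368 and 6013 CPM on day 7, with 0.91 (adjusted p = 0.148, SE 0.25). Air males had medians of 0.53 and 0.75 for the same steps. In contrast, the nuclear genes of oxidative phosphorylation (71 tested) had medians of -0.04, 0.07 and 0.06. The part of this RNA's share in the results of other genes was not tested.

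Other lists are given by their medians. Cytosolic ribosomal proteins (84 genes) had medians of 0.03, -0.05 and 0.01, and proteasome subunits 0.16, 0.05 and 0.14. Neuronal channel and synaptic genes (32 tested) had -0.18 for day 7 minus day 1 in exposed males and -0.70 in air males, with 4 higher and 4 lower by the looser threshold in exposed males and 0 and 17 in air males. Muscle structural genes (30 tested) had -0.06 in exposed and -0.53 in air males, with 4 higher and 1 lower in exposed and 0 and 11 in air males. Rhodopsin and phototransduction genes had 0.13 and -0.50. For these lists the difference between arms was not tested. In the fat body list Lsp1beta, like Lsp2 a larval serum protein, had 267, 158 and 173 CPM on day 1, 86.8 and 48.8 CPM on day 2, and 115, 101 and 130.0 CPM on day 7, lower in both libraries of day 2 than in any of day 1, with -1.55 (adjusted p = 0.144, SE 0.31). Apoptosis and DNA damage genes had a median of -0.03, autophagy genes -0.16 and DNA replication genes 0.23 for day 7 minus day 1. For the 3 steps in order, medians were -0.01, 0.09 and 0.09 for midgut digestive enzymes and -0.02, 0.01 and -0.09 for immune recognition and Imd pathway genes. Odorant binding and taste genes had 0.07, 0.16 and 0.43, and cuticle proteins -0.05, 0.02 and 0.05. Somatic sex markers had 0.18, 0.20 and 0.32, and larval serum, fat body and haemolymph proteins 0.11, -0.21 and -0.03. Lipid synthesis and storage genes had 0.10, -0.16 and 0.11, and insulin, adipokinetic hormone and starvation genes 0.01, -0.16 and -0.19. Juvenile hormone and ecdysone genes had 0.08, 0.20 and 0.24, and Malpighian tubule genes 0.00, 0.21 and 0.09.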

How the data were processed

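The deposited files hold whole-number counts for each gene. The submitters' processing notes name fastp, STAR, HTSeq and dm6, while the annotation release and the strand setting were not given in the sources used here. Per the labels' protocols, libraries were made from total RNA with a 3' end kit. Symbols were matched to the BDGP6.54 annotation (17290 of 17582 matched once).

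The 8 exposed male libraries were fitted in edgeR 4.0.16 (R 4.3.3): genes were kept by filterByExpr (count minimum 10, total minimum 15), scaled by TMM and tested by quasi-likelihood F test for any difference among days and for each pair, with Benjamini-Hochberg adjustment at 0.05 over all genes tested. Air males were fitted alike. The difference between arms was fitted on 17 libraries. Named genes are, per step, up to 10 per direction with the largest fold past the threshold, no overlap and at least 5 CPM; up to 4 with the smallest p of a list with a member past; the 5 with the smallest p where fewer than 5 passed; and the 10 with the smallest p for any difference. Further examples were picked with their values in view. Members and lists were chosen with earlier results of these data known. Tested on simulated data, the 8-library fit recovered 64%, 71% and 74% of 4-fold and 9%, 8% and 14% of 2-fold changes for day 2 minus day 1, day 7 minus day 2 and day 7 minus day 1. Of the 80, 82 and 94 genes called there, 8.75%, 3.66% and 6.38% were false, in that order. For any difference the false share was 7.5% with day 2 changed and 8.33% with day 7 changed. All but the share for day 7 minus day 2 lay above 0.05, so genes called may include more false ones than that threshold allows. Alternatives were other scalings, filters, DESeq2 1.42.0, robust spread, a replicate block, all 17 libraries, the library left out, the threshold of the series text, and leaving out each library. Figures were drawn in matplotlib.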

Additional observations from a re-analysis of the deposited data

Results flagged for a closer look

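DptA moved in opposite directions between days 1 and 2 in exposed and air males, with no overlap between the days in either arm: both exposed libraries of day 2 lay above the 3 of day 1, and the 3 air libraries of day 2 lay below the 3 of day 1. The difference of the changes was 6.51 on the log2 scale (SE 1.26, adjusted p = 0.173), which did not pass. Of 1063 listed genes, 4 showed such opposite movement for day 2 minus day 1, 4 for day 7 minus day 2 and 6 for day 7 minus day 1. The share of all genes with such opposite movement was not computed, so these counts have no background to be set against. They do not show that DptA stood out from other genes.

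The library titled as an exposed male of day 2 that was left out carried female transcripts above the level in any air male: the yolk protein gene Yp1 at 6700 CPM (at most 56.7 CPM in air males), the oocyte gene dhd at 4129 CPM (at most 36.3 CPM) and the vitelline membrane gene Vm26Aa at 717 CPM (at most 9.34 CPM). The chorion genes did not set this library apart from the 8 exposed libraries used, in CPM of the library total. Cp38 was at 43.2 CPM in it and at up to 69.0 CPM in the 8. Cp18 was at 10.8 CPM against up to 59.4 CPM, and Cp36 at 26.7 CPM against up to 26.4 CPM. No group holds 4 or more libraries, so no single library was tested as an outlier.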

How the results depend on the processing

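The reported counts were 19 genes for any difference and 0, 1 and 15 for day 2 minus day 1, day 7 minus day 2 and day 7 minus day 1, and 0 in the 4 tests of exposed minus air. In that order (any, then the 3 steps), DESeq2 gave 310, 107, 30 and 385, and exposed minus air 4, 15 and 1 for any, day 2 minus day 1 and day 7 minus day 1. No filter gave 107, 43, 11 and 130, and exposed minus air 11, 13 and 3 for any and the first 2 steps. Robust spread gave 42, 9, 6 and 56. The replicate block gave 83, 17, 20 and 103. Deviations from the day mean correlated at -0.060 to 0.251 for same-numbered libraries, not all over 0.1. For libraries of different number they correlated at -0.251 to 0.163. The numbers were therefore not taken to pair the samples. With 2 libraries on day 2, their deviations mirror each other, so this check cannot exclude a pairing. All 17 libraries in 1 fit gave 41, 4 and 55 for any, day 7 minus day 2 and day 7 minus day 1. With the library that held female RNA added, any, day 7 minus day 2 and day 7 minus day 1 gave 0. The looser threshold gave 1094, 385 and 1612 genes for the 3 steps, and 681, 531 and 634 exposed minus air. Leaving out 1 library at a time gave 0 to 47, 0 to 22, 0 to 14 and 0 to 51, and exposed minus air 0 to 48, 0 to 55, 0 to 77 and 0 to 0. The cause of these shifts was not tested, except that leaving a library out or adding the mixed one changes the samples. No named gene changed sign under any alternative. Of these values 583 kept their side of the threshold, 166 lost it and 66 gained it. Of the list medians, 909 moved by less than the standard error of a difference between days and 180 by more. That error was estimated from the spread between replicates. With library totals alone the median log2 fold change of all genes was -0.19, 0.05 and -0.12 for the 3 steps. Setting genes at 0 in a day to their bound moved 0 of 99 list medians.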
